A study of Drosophila melanogaster with 4 samples.

Results

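The CPR genes form the largest family of structural cuticle proteins in *Drosophila melanogaster*, and their messenger RNAs were followed here in adult heads. All genes in the deposited count table whose FlyBase symbol begins with Cpr and a digit were taken, which gave 70 genes of 13608, and genes without a count were kept. The libraries were made by 3′-seq from polyadenylated RNA of heads of adult, untreated wild-type flies, in 4 replicates and 1 condition. Per the methods of the study, the RNA was taken from powdered heads after UV cross-linking, from a lysate cleared by centrifugation. The wild type was *w1118*. The series record speaks of independent wild-type lines, but the sample labels give only replicate numbers and neither age nor sex. The study's methods speak of adult flies of both sexes, without saying which were used for these libraries. There is thus no contrast between conditions, and the questions asked were which cuticle genes the adult head transcribed, at which level, and how far replicates differed.

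The cuticle is a layer of chitin fibres and proteins that epidermal cells secrete toward the outside of the body. CPR proteins share the Rebers-Riddiford consensus, a stretch that binds chitin, and different family members are used in larval, pupal and adult cuticle and in soft or hard regions. Much of the adult cuticle is secreted late in metamorphosis and in the first days of adult life. The head also carries a specialised cuticle, the corneal lens of each facet of the compound eye, which cone and pigment cells secrete.

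With the REV kit, reads start at the poly(A) end of a transcript, so that a long transcript does not give more reads than a short one. Levels are therefore given as counts per 1000000 counts on genes (CPM) and were not divided by length. Library totals ranged from 8753359 counts in replicate 3 to 13434565 counts in replicate 1, and Spearman's rho between replicates, across genes, from 0.918 to 0.947. Genes of neurons (4 of 4 with 10 or more counts in each replicate, summing to 1997 ± 293 CPM) and of photoreceptors (9 of 9, 33358 ± 4973 CPM; SD, n = 4) matched the labelled tissue. Fat body genes, which heads also express, had 5 of 5 above that minimum and summed to 10147 ± 3123 CPM. Of genes that mark other body parts, midgut genes summed to 838, 115, 172 and 179 CPM in replicates 1 to 4 (6 of 11 above the minimum, none at 0 throughout). Male accessory gland genes summed to 522, 5.75, 10.6 and 159 CPM (2 of 8 above the minimum, none at 0 throughout). Eggshell genes of the ovary summed to 8.49, 19.4, 25.6 and 7.21 CPM (1 of 9, none at 0 throughout). Replicate 1 thus stood apart for 2 of these lists. Values without it are given for some of the genes that were highest in it, not for all. For male accessory gland genes, replicate 4 was also well above replicates 2 and 3.

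The family fell into a few abundant genes and a long tail. Of the 70 *Cpr* genes, 28 (40.0%) had 10 or more counts in each replicate, against 57.0% of all genes. Another 20 (28.6%) had 0 counts in all replicates, against 12.6% of all genes, and the remaining 22 had a few counts or lacked them in some replicates. At the top, 8 genes (11.4%) had a mean of at least 100 CPM, a level that 10.2% of all genes reached. The median gene of the family had a mean of 1.21 CPM and the median of all genes was 7.01 CPM. The first number was 28 without replicate 1 and 30 without replicate 3.

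Together the family took 4489, 3298, 2023 and 3760 CPM in replicates 1 to 4, a mean of 3393 ± 1036 CPM (SD, n = 4). This corresponds to 0.339% of the counts on genes. The 5 highest genes, *Cpr72Ec*, *Cpr65Au*, *Cpr100A*, *Cpr49Ae* and *Cpr67B*, held 71.9 ± 6.33% of the family's counts, and the 20 highest held 98.0 ± 0.244%. The other 50 genes together reached only 66.4 ± 16.0 CPM (SD, n = 4).

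**Figure D1:**
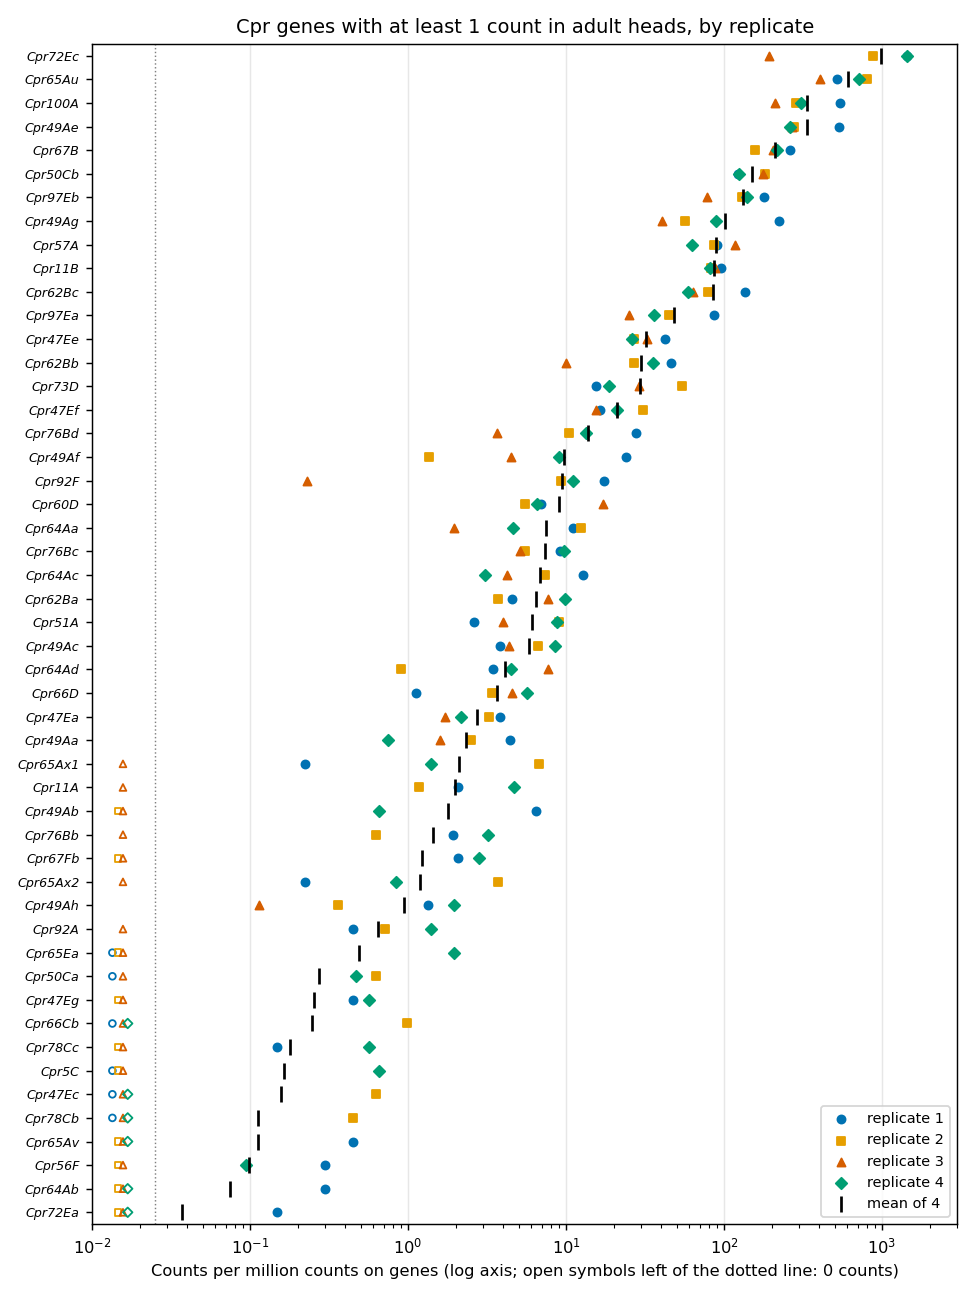
Level of each *Cpr* gene with at least 1 count (50 of 70 genes) in CPM on a log axis. Filled symbols are the 4 replicates, black bars the mean, and open symbols left of the dotted line mark replicates with 0 counts. Means run from 988 CPM for *Cpr72Ec* to under 1 CPM for the 14 lowest genes, and replicate 3 has more zeros than any other replicate. That holds over all genes too.

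*Cpr72Ec* had the highest mean level in the family. It encodes a protein of 429 amino acids that is a component of the corneal lens. The gene (FBgn0036619) has a single exon on the minus strand of chromosome 3L, from 16365894 to 16367340 in dm6, and overlaps no other annotated gene. It had 1430, 882, 193 and 1447 CPM in replicates 1 to 4, from 19209, 9811, 1693 and 15459 counts, a mean of 988 ± 591 CPM (SD, n = 4) and rank 191 of all genes. Replicates 1 and 4 were alike, and replicate 3 was at 0.154 of the mean of the others. The 95% Wilson interval in replicate 3, 184 to 203 CPM, lay far below the 1410 to 1450 CPM of replicate 1. These intervals cover counting error only. Without replicate 3 the mean was 1253 CPM.

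The list of lens genes used here held 3 genes and may not be complete. Of the others on it, *Crys* was also lowest in replicate 3, whereas *retinin* was not. Of all genes averaging 10 or more counts, 45.0% were lowest in that replicate. *retinin*, which encodes another lens protein, had 2853, 1246, 1200 and 1127 CPM, and *Crys*, which encodes Drosocrystallin, had 96.2, 34.2, 16.8 and 47.8 CPM. Relative to the other replicates' mean, *Cpr72Ec* was at 0.154, *Crys* at 0.283 and *retinin* at 0.689 in replicate 3. In replicate 4 the 3 genes were at 1.73, 0.973 and 0.638. Photoreceptor genes, summed, were at 39566, 29432, 29249 and 35186 CPM, a ratio of 0.842 in replicate 3. In RNA from cleared lysates of whole heads, fewer lens-secreting cells and less RNA per cell cannot be told apart. Neither was tested as a reason for the low value.

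**Figure D2:**
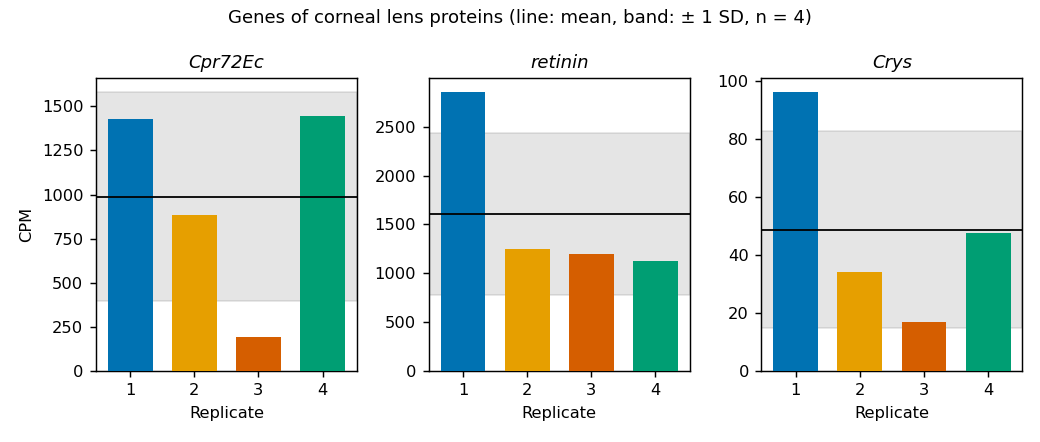
Levels in CPM of 3 genes of corneal lens proteins in replicates 1 to 4, each on its own axis from 0; the line is the mean and the band 1 SD to either side (n = 4). *Cpr72Ec* was high in replicates 1 and 4 and low in replicate 3, whereas *retinin* was high in replicate 1 and nearly level in the others.

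*Cpr65Au* (FBgn0042119), a small protein of 106 amino acids, came next. Its gene lies on chromosome 3L from 6131242 to 6132109. Replicates had 521, 799, 403 and 717 CPM, a mean of 610 ± 181 CPM (SD, n = 4). The antisense RNA gene *asRNA:CR46005* overlaps it by 833 bp, including its poly(A) end. It is not known whether counting used strand, and reads of the antisense RNA, not analysed here, may be part of this value.

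*Cpr100A*, on chromosome 3R, had 541, 285, 211 and 307 CPM and averaged 336 ± 143 CPM. *Cpr49Ae*, on 2R, had 534, 277, 268 and 261 CPM and averaged 335 ± 133 CPM. Both were highest in replicate 1, at 2.02 and 1.99 times the mean of the other replicates, and their means cannot be ordered. Without replicate 1 the means were 268 and 269 CPM. *Cpr67B*, on 3L, was steadier, at 260, 157, 203 and 217 CPM (mean 209 ± 42.5 CPM; SD, n = 4 for each).

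Below these, 3 genes reached a mean of at least 100 CPM. *Cpr50Cb* had 122, 182, 177 and 124 CPM, with replicates 2 and 3 high and no outlying replicate. *Cpr97Eb* had 180, 129, 78.4 and 139 CPM and was lowest in replicate 3. *Cpr49Ag* had 222, 56.5, 40.4 and 89.1 CPM, and its mean of 102 ± 82.6 CPM (SD, n = 4) rested on replicate 1: it was 62.0 CPM without it.

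*Cpr57A* and *Cpr11B* had nearly the same mean, at 89.0 and 86.9 CPM, but not the same steadiness. *Cpr57A* had 90.1, 86.9, 117 and 62.5 CPM and lies entirely within the bounds of *Obp57d* on the same strand. No counts were found for *Obp57d*. Its annotated 3′ end lies within *Cpr57A*, so its reads may be part of the *Cpr57A* value. *Cpr11B*, on the X chromosome, had 96.2, 82.9, 87.3 and 81.1 CPM, the smallest ratio of highest to lowest among the *Cpr* genes averaging 10 or more counts. It lies inside *hwt* on the opposite strand, a gene with 39.2 ± 7.24 CPM (SD, n = 4).

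*Cpr62Bc* had 136, 79.5, 64.0 and 59.3 CPM. *Cpr97Ea*, the neighbour of *Cpr97Eb*, had 86.8, 45.0, 24.9 and 36.0 CPM. *Cpr47Ee* had 42.1, 27.0, 32.6 and 26.3 CPM. All 3 were highest in replicate 1, and without it their means were 67.6, 35.3 and 28.6 CPM.

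*Cpr62Bb* had 46.3, 26.9, 10.1 and 35.7 CPM and was lowest in replicate 3. *Cpr73D* had 15.6, 54.5, 28.9 and 18.7 CPM, and *Cpr47Ef*, whose transcript has 17 exons, had 16.5, 30.5, 15.5 and 21.1 CPM. *Cpr73D* and *Cpr47Ef* were highest in replicate 2, as were *Cpr65Au* and *Cpr50Cb*. *Cpr73D* overlaps *Ogdh* on the opposite strand by 2868 bp, outside the annotated 3′ ends of both, and *Ogdh*, a subunit gene of a citric acid cycle enzyme, had 348 ± 60.5 CPM (SD, n = 4).

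Of the last 4 of the 20 highest genes, *Cpr76Bd*, which encodes the longest protein of the family at 1231 amino acids, had 27.8, 10.4, 3.66 and 13.4 CPM. *Cpr49Af* had 23.9, 1.35, 4.46 and 9.08 CPM, a 17.7-fold range. Its mean of 9.69 CPM rested on replicate 1 and was 4.96 CPM without it. *Cpr92F* had 17.3, 9.26, 0.228 and 11.0 CPM, with only 2 counts in replicate 3, where the other replicates predicted 113. *Cpr60D* had 6.92, 5.48, 17.3 and 6.55 CPM and was the one gene of these 20 besides *Cpr57A* with its maximum in replicate 3.

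The order of levels was only coarsely fixed. For 19 of the 20 successive pairs in the ranking, from *Cpr72Ec* down to *Cpr64Aa*, the ranges over replicates overlapped. The exception was *Cpr49Ae* over *Cpr67B*, at 261 CPM or more against at most 260 CPM. Only 2 of the 20 pairs kept their order in every replicate, that one and *Cpr62Bc* over *Cpr97Ea*. Even *Cpr72Ec*, at 193 CPM in replicate 3, was there below *Cpr65Au*, *Cpr49Ae*, *Cpr100A* and *Cpr67B*, at 403, 268, 211 and 203 CPM.

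Over the 37 *Cpr* genes averaging 10 or more counts, replicate 1 held the highest CPM for 17 (45.9%), against 38.1% of all genes at that level. Replicate 3 held the lowest for 18 (48.6%), against 45.0% of all genes. With TMM scaling, which corrects for shifts of whole libraries, these counts were 13 and 14 of 37, against 25.7% and 34.3% of all genes. Midgut genes were 5.39 times and male accessory gland genes 8.96 times higher in replicate 1 than in the mean of the others. That mean includes replicate 4, at 159 CPM for male accessory gland genes. The part of these genes' tissues in the high *Cpr* values of replicate 1 was not tested.

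**Figure D3:**
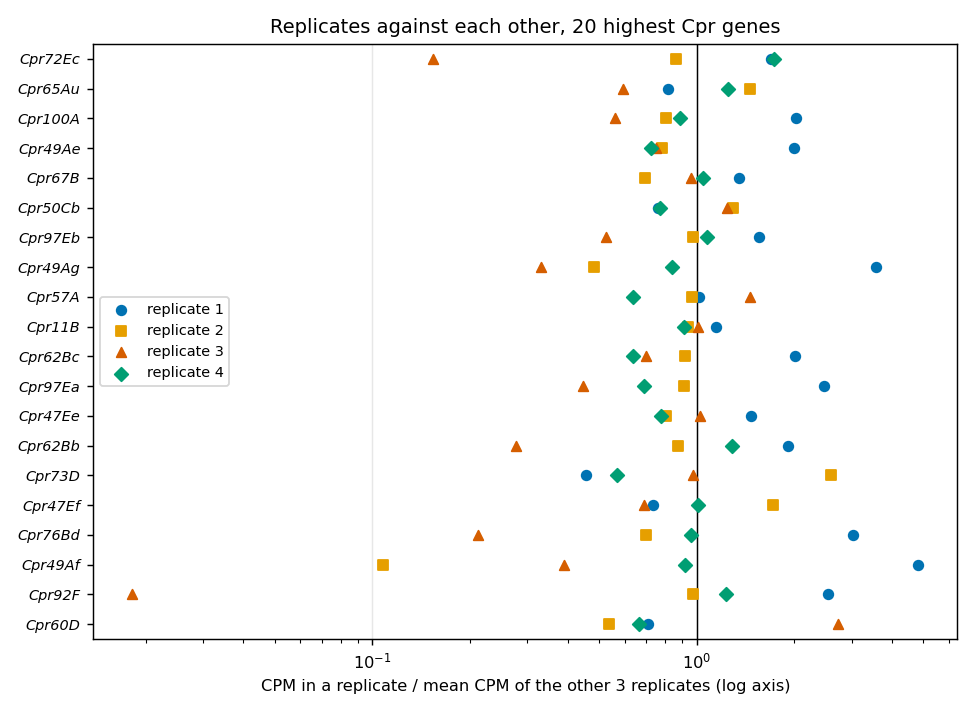
CPM in each replicate divided by the mean CPM of the other 3, for the 20 highest *Cpr* genes, on a log axis; the line marks a ratio of 1. Replicate 1 lies at 2.02 for *Cpr100A*, 3.58 for *Cpr49Ag* and 4.82 for *Cpr49Af*, replicate 3 at 0.154 for *Cpr72Ec* and 0.018 for *Cpr92F*, and all replicates of *Cpr11B* lie near 1.

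The spread between replicates beyond counting noise was estimated with edgeR as a biological coefficient of variation (BCV), which is moderated toward a trend over all genes of like level. The 37 *Cpr* genes had a median BCV of 0.571, against 0.437 for all 9532 genes fitted. The trend at the levels of these *Cpr* genes had a median of 0.567, close to the median of the genes themselves. Counted one by one, 16 of the 37 (43.2%) lay above the trend, against 30.4% of all genes. With 10 or more counts required in each replicate, the median BCV was 0.426 where the trend was 0.378, and 13 of 28 lay above it, against 31.1% of all genes. The lowest values were 0.299 for *Cpr11B*, 0.307 for *Cpr67B* and 0.319 for *Cpr97Eb*. The highest were 1.79 for *Cpr49Ab*, 1.70 for *Cpr67Fb* and 1.47 for *Cpr65Ax2*, all genes with zeros in some replicates. Among abundant members, *Cpr72Ec* had 0.522 where the trend was 0.369, and *Cpr49Ag* 0.486 where it was 0.370.

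**Figure D4:**
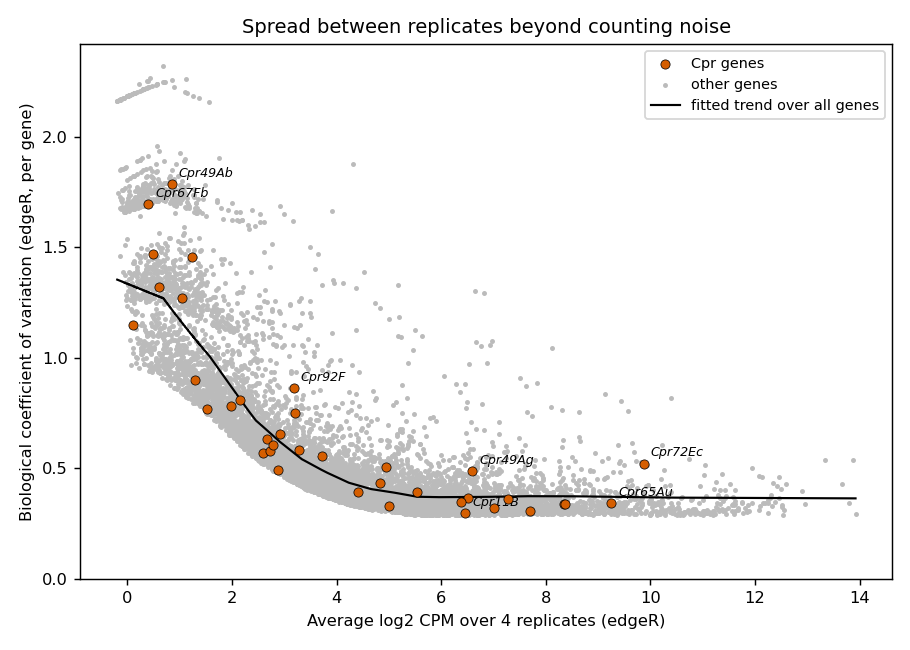
BCV per gene against its average level (log2 CPM as edgeR computes it) for the 37 *Cpr* genes fitted, for the other genes and for the trend over all genes. *Cpr11B* lies under the trend, *Cpr72Ec*, *Cpr49Ag* and *Cpr92F* lie above it, and *Cpr49Ab* is the highest *Cpr* gene at 1.79.

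Neighbouring *Cpr* genes were often far apart in level. Members at most 20 kb apart were joined into clusters, giving 12 clusters with 49 genes, and 21 genes stood alone. Of the clustered genes, 20 of 49 reached 10 counts in each replicate and 13 had none. Of the lone genes these numbers were 8 and 7 of 21.

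The *Cpr72E* cluster spans less than 5 kb on 3L. *Cpr72Ec* held nearly all of its level, while *Cpr72Ea* had 2 counts in replicate 1 and none elsewhere, and *Cpr72Eb* had none.

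In the *Cpr65A* cluster on 3L (6131242 to 6161589), *Cpr65Au* held 99.4% of the summed level of 7 genes. *Cpr65Aw*, *Cpr65Ay* and *Cpr65Az* had 0 counts. The same stretch holds 11 CPR genes with older names, the *Lcp65A* genes of larval cuticle and *Acp65Aa* of adult cuticle. Of these 18 genes, 3 reached 10 counts in each replicate (*Cpr65Au*, *Acp65Aa* and *Lcp65Ac*) and 9 had none, and *Cpr65Au* held 91.0% of the sum. On 2R, *Cpr50Cb* had 151 CPM beside 0.274 CPM for *Cpr50Ca*, whereas the highest gene held 73.2% of the sum in the *Cpr49A* cluster and 57.1% in the *Cpr47E* cluster.

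The *Cpr49A* cluster on 2R (12376626 to 12415170) was the broadest, with 8 genes. *Cpr49Ae* (335 CPM) and *Cpr49Ag* (102 CPM) flank *Cpr49Af* (9.69 CPM), and *Cpr49Ad* had no counts. Of its 7 genes averaging 10 or more counts, 5 were highest in replicate 1, among them *Cpr49Aa* at 4.39, 2.52, 1.60 and 0.749 CPM. *Cpr49Ac* was not, at 3.80, 6.65, 4.34 and 8.52 CPM.

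In the *Cpr47E* cluster, *Cpr47Ee* and *Cpr47Ef* had 32.0 and 20.9 CPM, *Cpr47Ea* had 2.73 CPM, and *Cpr47Eb* and *Cpr47Ed* had no counts. The *Cpr62B* and *Cpr97E* clusters were the ones with all of their genes (3 of 3 and 2 of 2) at 10 or more counts in each replicate. The *Cpr64A* cluster was low, with means of 4.12 to 7.51 CPM for 3 of its 4 genes. The other, *Cpr64Ab*, averaged 0.0744 CPM, from 4 counts in replicate 1 alone. Replicates differed as well, with *Cpr64Aa* between 1.94 and 12.4 CPM. All 4 genes lie within the bounds of *CG43367* (27.3 ± 10.5 CPM, SD, n = 4), whose own annotated 3′ ends lie in none of them. *Cpr64Ad* is on the same strand as *CG43367* and the others are on the opposite one.

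Genes at 0 throughout were found on all large arms except 3R. They were *Cpr12A* on X; *Cpr23B*, *Cpr30B*, *Cpr30F*, *Cpr31A* and *Cpr35B* on 2L; and *Cpr47Eb*, *Cpr47Ed* and *Cpr49Ad* on 2R. The others, on 3L, were *Cpr65Aw*, *Cpr65Ay*, *Cpr65Az*, *Cpr65Eb*, *Cpr65Ec*, *Cpr67Fa1*, *Cpr67Fa2*, *Cpr72Eb*, *Cpr76Ba*, *Cpr78Ca* and *Cpr78E*. All 5 family members on 2L thus had no count, while 15.2% of the 2579 genes of that arm had 0 counts throughout. On 3L the number was 11 of 35, against 14.2% of that arm's genes. On 2R it was 3 of 21, near the arm's 11.3%. For X and 3R it was 1 of 4 and 0 of 5, against 12.3% and 10.8%. A count of 0 allows 0.223 CPM at most in the deepest library and 0.343 CPM in the shallowest. This covers counting error only, since the reads carry no molecular identifiers. *Cpr67Fa1* and *Cpr67Fa2* each encode 134 amino acids and are numbered as duplicates, and reads that fit both copies may have been left uncounted.

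A further 7 genes had 0 counts in 1 to 3 replicates and at least 20 counts in another. *Cpr65Ax1* had 3, 75, 0 and 15 counts in replicates 1 to 4, and its duplicate *Cpr65Ax2* had 3, 41, 0 and 9. Reads could have been split between these copies. *Cpr49Ab* had 87, 0, 0 and 7 counts, *Cpr11A* 28, 13, 0 and 50, *Cpr76Bb* 26, 7, 0 and 34, and *Cpr67Fb* 28, 0, 0 and 30. *Cpr65Ea* had its 21 counts in replicate 4 alone. Replicate 3, the library with the fewest counts, was at 0 for all 7, with 5.22 to 23.4 counts predicted by the others. These genes were picked for having a 0. How often replicate 3 is at 0 among all genes that meet this rule was not computed. Over the whole family, 44, 40, 31 and 44 of 70 genes had a count in replicates 1 to 4. Of all 13608 genes, 11424, 9752, 9204 and 10036 had one, so replicate 3 was lowest there too. In replicate 3 these genes were 44.3% of the family and 67.6% of all genes. In the family, 9 of 70 (12.9%) had at least 10 counts in a replicate and 0 in another, against 16.2% of all genes.

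The 28 genes with 10 or more counts in each replicate tended to be longer and to have more exons in the Ensembl annotation. Their median protein had 195.5 amino acids (93 to 1231), against 159.5 (109 to 340) for those at 0 throughout and 144.5 (102 to 815) for the rest. The median number of exons was 3, against 2 in both other sets. Their annotated 3′ untranslated regions had a median of 189 nt, against 100 nt for those at 0, where *Cpr65Az* had none. Reads that end beyond a short annotated 3′ end are not counted, and its part in the zeros was not tested. In all, 13 genes overlapped another annotated gene, 9 of the 28, 4 of the remaining 22 and none of those at 0. The share of all genes with such an overlap was not computed, so the difference cannot be read as particular to this family. In each of the 13, an annotated 3′ end lay within the overlap. *Cpr51A*, for example, had 35, 100, 35 and 94 counts, and on the other strand *CG30197*, which ends within it, had 613 ± 88.9 CPM (SD, n = 4).

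The rest of the cuticle programme was read from lists of related genes. Of 28 CPR genes with older names, 6 reached 10 counts in each replicate and 10 had none, and they summed to 160 ± 85.1 CPM, far below the 3393 ± 1036 CPM of the *Cpr* genes (SD, n = 4). The highest were *Crys* (48.7 CPM), *Acp65Aa* of adult cuticle (60.0, 21.5, 46.5 and 27.5 CPM) and *Ccp84Ab* (85.6, 19.1, 11.1 and 27.7 CPM). Without replicate 1, *Crys* had 32.9 CPM, and *Ccp84Ab* had 19.3 CPM where its mean over all replicates was 35.9 CPM. Genes named for larval cuticle differed among themselves. *Lcp65Ac* had 406, 254, 79 and 12 counts and *Lcp65Ag2* 9, 24, 14 and 31, whereas *Lcp1* had 1, 0, 0 and 30 and *Lcp2* and *Lcp4* had none. In the Tweedle family of structural cuticle proteins, 2 of 25 genes passed the same minimum and 13 were at 0. It summed to 23.5 ± 6.07 CPM, led by *TwdlT* (15.7 CPM), *TwdlG* (2.65 CPM) and *Twdlbeta* (1.97 CPM). Without replicate 1, *TwdlG* had 0.980 CPM and lay below *Twdlbeta* at 2.29 CPM.

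Of 12 genes for making and arranging chitin, 9 passed and none was at 0 throughout, for a sum of 326 ± 116 CPM. The highest were *obst-E* (80.3 CPM), which encodes a chitin-binding protein, *mmy* (72.5 CPM), an enzyme for the chitin precursor, and *serp* (44.9 CPM), a chitin deacetylase; the chitin synthase *kkv* had 14.7 CPM. Of 7 tanning genes, which serve to harden and colour cuticle, 6 were among the genes counted. Of these 6, 4 were above the minimum, and they summed to 458 ± 147 CPM. They were led by *b* (208 CPM), *e* (149 CPM) and *Ddc* (64.4 CPM), genes that also serve transmitter metabolism in the head. The chitin list was 1.77 times and the older-named CPR list 2.43 times as high in replicate 1 as in the mean of the others, and the tanning list 0.771 times.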

How the data were processed

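QuantSeq REV 3′-seq libraries were made by the authors from 10 ng of total RNA of adult wild-type heads. Per the study's methods and the submitters' processing notes, poly(A) stretches were trimmed with fastp, reads were mapped to dm6 with STAR 2.6.1b without introns, and featureCounts gave the deposited raw counts per gene, with no normalization. The annotation, strand setting and treatment of multiply mapped reads are not given in the sources used here, and so overlapping and duplicated genes are uncertain. Introns not being allowed, reads across a splice junction may have been lost. Library totals were 13434565, 11121829, 8753359 and 10680411 counts.

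Gene symbols matched 13513 of 13608 identifiers. Gene structures came from Ensembl release 115, which is on dm6. CPM, 95% Wilson intervals and means ± SD were computed in Python 3.11.15 (pandas 2.3.3, scipy 1.17.1). A count of 0 was taken to allow 3 counts. BCVs came from edgeR 4.0.16 in R 4.3.3 (TMM, intercept only, genes averaging 10 or more counts), a step checked on simulated data. With 1 condition, no test between groups was made; Dixon's ratio was used to find replicates far from the rest. Alternatives were scaling by TMM or by DESeq2 1.42.0, other count minimums, other cluster distances and leaving out each replicate. Replicates may come from separate lines, but the labels do not say so.

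The genes named were the 20 highest, those with a replicate far from the rest, all at 0 throughout, those at 0 in some replicates with at least 20 counts in another, the 3 highest and lowest in BCV, *Cpr72Ec*, and the 3 highest of each cuticle list. Others, among them cluster neighbours and overlapping genes, were named after their values were seen. The family and the lists were chosen with earlier results of these data known.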

Additional observations from a re-analysis of the deposited data

Results flagged for a closer look

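Of 38 values, the 37 *Cpr* genes averaging 10 or more counts and the summed level of the family, 3 had a replicate whose gap to its nearest neighbour took up most of the range over replicates, beyond Dixon's 95% limit. About 1.9 of 38 would pass by chance if the values were independent and normally distributed. The summed level is built from the genes, so they are not all independent. The share of all genes beyond this limit was not computed. In *Cpr49Ae* the gap was 0.940 of the range, with 534 CPM in replicate 1 against 261 to 277 CPM in the others, and with TMM scaling it was 0.666 and within the limit. In *Cpr49Ab* it was 0.899, with 6.48 CPM in replicate 1 against 0 to 0.655 CPM. In *Cpr60D* it was 0.878, with 17.3 CPM in replicate 3 against 5.48 to 6.92 CPM. The gaps of *Cpr49Ab* and *Cpr60D* were 0.892 and 0.983 with TMM scaling.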

How the results depend on the processing

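Of the *Cpr* genes, 28 reached 10 counts in each replicate, 31 reached 1 count and 27 reached 1 CPM, and the first number was 28 to 30 with a replicate left out. The number at 0 throughout was 20, and 20 to 23 with a replicate left out. The summed level was 3393 CPM, 3027 to 3849 CPM with a replicate left out, and 3385 CPM with TMM scaling. Its SD over replicates was 1036 CPM, and 665 CPM with TMM scaling. With a replicate left out, the share of the 5 highest genes was 69.7% to 74.8% and the median BCV 0.493 to 0.580. The median BCV was 0.426 for genes with 10 or more counts in each replicate and 0.610 without scaling factors. There were 13 clusters at 10 kb and 12 at 50 kb, and both held 20 genes with 10 or more counts in each replicate. Among 21 named genes, both scalings moved no mean by more than 1.12-fold, whereas leaving out replicate 1 moved *Cpr49Ag*, *Cpr49Af*, *Cpr76Bd* and *Cpr49Ab* by over 1.5-fold, to 62.0, 4.96, 9.16 and 0.218 CPM. The 3 highest genes of each cuticle list were also followed without each replicate, which was chosen after seeing the data; *Ccp84Ab* and *TwdlG* moved by over 1.5-fold, to 19.3 and 0.980 CPM without replicate 1. Classes of the Rebers-Riddiford consensus were planned and not run. No paired analysis was possible because the study has a single condition.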
